A study of Rattus norvegicus with 10 samples.

Results

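ChREBP, the carbohydrate-response element binding protein encoded by Mlxipl, was described in rat liver together with 4 genes known as its targets or as sugar-induced, Txnip, Rgs16, Klf10 and Fgf21, and with 2 genes of sugar entry and fructose use, Slc2a2 and Khk. The genes were chosen by symbol from 32883 genes, with the EHBR and SD values of these samples already known. Their strain differences are therefore given as descriptions without a test. Of the 7 genes, 6 were found under their own symbol. Mlxipl was found through its Entrez gene ID, because its row carries a placeholder symbol. All 7 passed the filter on low values that left 11083 genes. That filter asked for at least 1 TPM (a unit of transcript level that divides reads by transcript length and gives every sample the same total) in at least 5 of the 10 samples.

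The samples were livers of 5 EHBR and 5 SD rats, all male and 5 weeks old, numbered 1 to 5 in each strain, with poly(A) RNA sequenced from each. EHBR, the Eisai hyperbilirubinemic rat, is a mutant derived from Sprague-Dawley (SD) stock. Its livers have no working Mrp2, the pump encoded by Abcc2 that exports conjugated bilirubin into bile. The loss of Mrp2 and any other difference between the strains cannot be told apart in this design. No diet, feeding state or hour of collection is given for these animals in the sources used here.

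ChREBP is a basic helix-loop-helix factor that metabolites of glucose and fructose activate. With its partner Mlx it binds carbohydrate-response elements (ChoRE), which are pairs of E-box-like half-sites, and turns on genes of glycolysis and lipid synthesis. Liver takes up glucose and fructose through GLUT2, the product of Slc2a2, and ketohexokinase, the product of Khk, traps fructose as fructose 1-phosphate. An alternative promoter of Mlxipl gives the isoform ChREBP-beta. The deposited values are per gene and do not separate isoforms.

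The libraries held 13.8 to 17.6 M assigned reads in EHBR and 15.6 to 19.6 M in SD. Abcc2 checked the labels: it averaged 13.8 ± 3.36 TPM in EHBR and 164 ± 95.6 TPM in SD (standard deviation, n = 5 per strain), with no overlap. Over all kept genes, 20.9% had an unadjusted p under 0.05 by limma. A log2 difference, EHBR minus SD, above 0 was found for 8102 of the 11083 kept genes. At an adjusted p under 0.05, 3.82% were called higher in EHBR and 1.63% lower. These shares are the background for such counts here. All 8 hepatocyte markers were kept and none was called by limma, 2 having an unadjusted p under 0.05, with summed levels of 160188 to 183487 TPM in EHBR and 139439 to 171662 TPM in SD. Prss1, Pnlip, Ins2, Plin1 and Lep, markers of pancreas and fat, were listed at 0 in every sample, and Cela1 of the same list was lower in EHBR. All 7 kept sinusoidal endothelial markers had a log2 difference above 0 with a median of 0.63, 3 were called higher in EHBR and 6 had an unadjusted p under 0.05, with summed levels of 88.0 to 118 TPM in EHBR and 61.9 to 78.3 TPM in SD. All 6 kept erythroid markers had a log2 difference above 0 with a median of 0.70, 1 was called higher, Slc4a1, and 5 had an unadjusted p under 0.05. Their summed level was 1326 to 3314 TPM in EHBR and 982 to 2048 TPM in SD. Hbb, Hba-a1 and Hba-a2 had log2 differences of 1.25, 1.27 and 1.52 among samples 1 to 3. Among samples 4 and 5 the same genes had -0.51, -0.2 and -0.02. Alas2, Slc4a1 and Ahsp were above 0 among samples 1 to 3 and also among samples 4 and 5, there with 0.14, 0.73 and 0.94. None of 10 kept Kupffer and leukocyte, 8 stellate or 2 cholangiocyte markers was called by limma, with 1 of each list at an unadjusted p under 0.05. The summed level of the Kupffer and leukocyte list was 364 to 692 TPM in EHBR and 364 to 442 TPM in SD. Among EHBR samples, sample 4 was the highest for Cd68, Marco, Cd5l, Ptprc, Adgre1, C1qa and Lyz2. Sample 3 was the highest for Clec4f, Cd163 and Vsig4. Summed stellate markers came to 131 to 175 TPM in EHBR and 80.5 to 176 TPM in SD. Summed cholangiocyte markers came to 12.9 to 14.8 TPM in EHBR and 15.8 to 17.8 TPM in SD. In each strain, samples 4 and 5 differed as a pair from the other samples. Dbp, a clock output factor, measured 3.26 to 7.51 TPM in EHBR samples 4 and 5 and 146 to 186 TPM in EHBR samples 1 to 3, and 4.06 to 4.42 against 93.8 to 152 TPM in the SD samples. Mitochondrial transcripts took 15.1% to 16.2% of TPM in EHBR samples 4 and 5 and 14.1% to 15.3% in EHBR samples 1 to 3, and 17.0% to 17.4% against 13.0% to 13.4% in the SD samples. The part of these markers and shares in the values below was not tested. In bulk liver, fewer cells of a type and less RNA per cell cannot be told apart.

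Promoters show where a ChoRE could lie near the start of these genes. RefSeq windows on the build GRCr8, from 250 bases before to 50 after the start, were found for 5 of the 7 genes, with 2 starts for Mlxipl. They were searched for the E box CACGTG and for the ChoRE letters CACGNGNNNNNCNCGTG. Both motifs read the same on either strand, and a ChoRE match can contain the E box. The ChoRE letters occurred in 11 of all 33469 windows (0.0329%) and the E box in 2148 (6.42%). Rgs16 was the 1 gene of the 5 with the ChoRE letters, and Fgf21 the 1 gene with the E box. The promoter of Pklr, liver pyruvate kinase and a classical ChREBP target, also held the ChoRE letters. Of 20 windows for the listed ChREBP targets, Pklr was the 1 with the ChoRE letters, and Arrdc4, Bhlhe40 and Elovl5 held the E box. The 3 windows below, of both matched genes among the 7 and of the target with the ChoRE letters, show the matches in capitals. The Rgs16 window is chr13:68437870-68438169 on the plus strand, the Fgf21 window chr1:105221327-105221626 on the minus strand and the Pklr window chr2:176841014-176841313 on the plus strand.
Rgs16: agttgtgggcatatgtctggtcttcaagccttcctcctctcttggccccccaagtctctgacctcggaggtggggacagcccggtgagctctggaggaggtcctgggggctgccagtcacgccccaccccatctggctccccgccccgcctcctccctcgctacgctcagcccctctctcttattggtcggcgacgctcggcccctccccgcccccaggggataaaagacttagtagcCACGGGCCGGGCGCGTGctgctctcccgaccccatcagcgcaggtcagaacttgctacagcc
Fgf21: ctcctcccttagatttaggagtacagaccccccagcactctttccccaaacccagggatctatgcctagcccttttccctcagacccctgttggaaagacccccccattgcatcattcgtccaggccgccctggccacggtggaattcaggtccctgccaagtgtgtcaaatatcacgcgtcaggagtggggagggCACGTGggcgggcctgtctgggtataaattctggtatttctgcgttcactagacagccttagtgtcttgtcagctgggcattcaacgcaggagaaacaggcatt
Pklr: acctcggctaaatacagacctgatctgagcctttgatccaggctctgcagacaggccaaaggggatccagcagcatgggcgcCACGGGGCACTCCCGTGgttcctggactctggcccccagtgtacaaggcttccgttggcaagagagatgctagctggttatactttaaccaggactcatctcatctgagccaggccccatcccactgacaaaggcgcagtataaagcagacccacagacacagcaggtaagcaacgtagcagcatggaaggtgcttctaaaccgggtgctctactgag
The Rgs16 match started 12 bases before the annotated start and ran across it, the Pklr match started 168 bases before it, and the Fgf21 E box 54 bases before it. No match in the windows of Mlxipl, Khk and Slc2a2 says only that these letters are absent there. Of the 11 genes with the ChoRE letters, 9 had a symbol in the files and 7 were kept. Pklr and Rgs16 had the largest log2 differences of these, 1.24 and 3.17, and the other 5, Hes1, Il4i1, Irak1, Nup62 and Smim7, lay between -0.08 and 0.27. Rgs16 and the list that holds Pklr were chosen with strain values of these data known, so nothing is read from that order.

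Mlxipl itself, on chromosome 12 from 24590645 to 24619639 in rn6, spanned less in EHBR than in SD, where samples 4 and 5 were the lowest. It measured 28.7, 31.7, 21.2, 23.3 and 21.2 TPM in EHBR samples 1 to 5, against 20.5, 25.6, 27.4, 11.0 and 9.50 TPM in SD samples 1 to 5. Among samples 1 to 3 the strains overlapped, and among samples 4 and 5 both EHBR values lay above both SD values. The log2 difference of TPM + 1, EHBR minus SD, was 0.50 (SE 0.28) over all samples, 0.14 (SE 0.17) among samples 1 to 3 and 1.05 (SE 0.16) among samples 4 and 5. Between 463 and 1048 reads per library lay behind these values.

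Rgs16 had the largest difference of the group. Its product speeds GTP hydrolysis by G alpha proteins of the Gi and Gq classes, and in mouse liver it is known to follow feeding time and glucose. The gene lies on chromosome 13 from 71179910 to 71185216 in rn6. It measured 29.7, 12.4, 17.8, 55.0 and 12.6 TPM in EHBR samples 1 to 5, against 0.452, 3.70, 3.44, 0.499 and 1.20 TPM in SD samples 1 to 5. Every EHBR sample lay above every SD sample, and values ranged widely within each strain. The mean was 25.5 ± 17.9 TPM in EHBR and 1.86 ± 1.59 TPM in SD (standard deviation, n = 5 per strain), a ratio of 13.7. On the log2 scale the difference was 3.17 (SE 0.46), with 2.67 (SE 0.49) among samples 1 to 3 and 3.92 (SE 0.64) among samples 4 and 5. The SD values rest on 13 to 97 reads per library and the EHBR values on 273 to 1540. EHBR sample 4 was the highest for Rgs16 and for Klf10.

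Klf10, a zinc-finger repressor first known as a TGF-beta inducible gene and driven by the clock and by sugar in mouse hepatocytes, also separated the strains. It lies on chromosome 7 from 77156006 to 77162148 in rn6. It measured 7.56, 5.87, 4.81, 8.35 and 5.96 TPM in EHBR samples 1 to 5, against 4.23, 1.93, 2.66, 1.79 and 2.03 TPM in SD samples 1 to 5. The lowest EHBR sample stood close to the highest SD sample, SD sample 1, and above it. The log2 difference was 1.11 (SE 0.20), with 0.87 (SE 0.24) among samples 1 to 3 and 1.47 (SE 0.21) among samples 4 and 5.

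Txnip encodes an arrestin-fold protein that binds thioredoxin and restrains glucose uptake, and it is among the most used readouts of ChREBP activity. It lies on chromosome 2 from 198683159 to 198686974 in rn6. It measured 21.4, 21.7, 25.7, 26.5 and 21.8 TPM in EHBR samples 1 to 5, against 17.2, 17.6, 19.8, 19.7 and 16.1 TPM in SD samples 1 to 5. The groups did not overlap in TPM, by a narrow margin, and the log2 difference was small at 0.36 (SE 0.11). That separation depends on the scaling: with FPKM, which scales by fragments and length, EHBR spanned 13.2 to 16.9 and SD 11.3 to 13.8, with 3 of 5 EHBR samples above every SD sample. That number was 2 with upper-quartile FPKM and 1 after median centring. Within the numbers the Txnip difference was 0.32 (SE 0.11) for samples 1 to 3 and 0.41 (SE 0.18) for samples 4 and 5. Of the 7 genes, Txnip had the narrowest deviations within a strain, between -0.16 and 0.18 from the strain mean on the log2 scale.

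**Figure D1:**
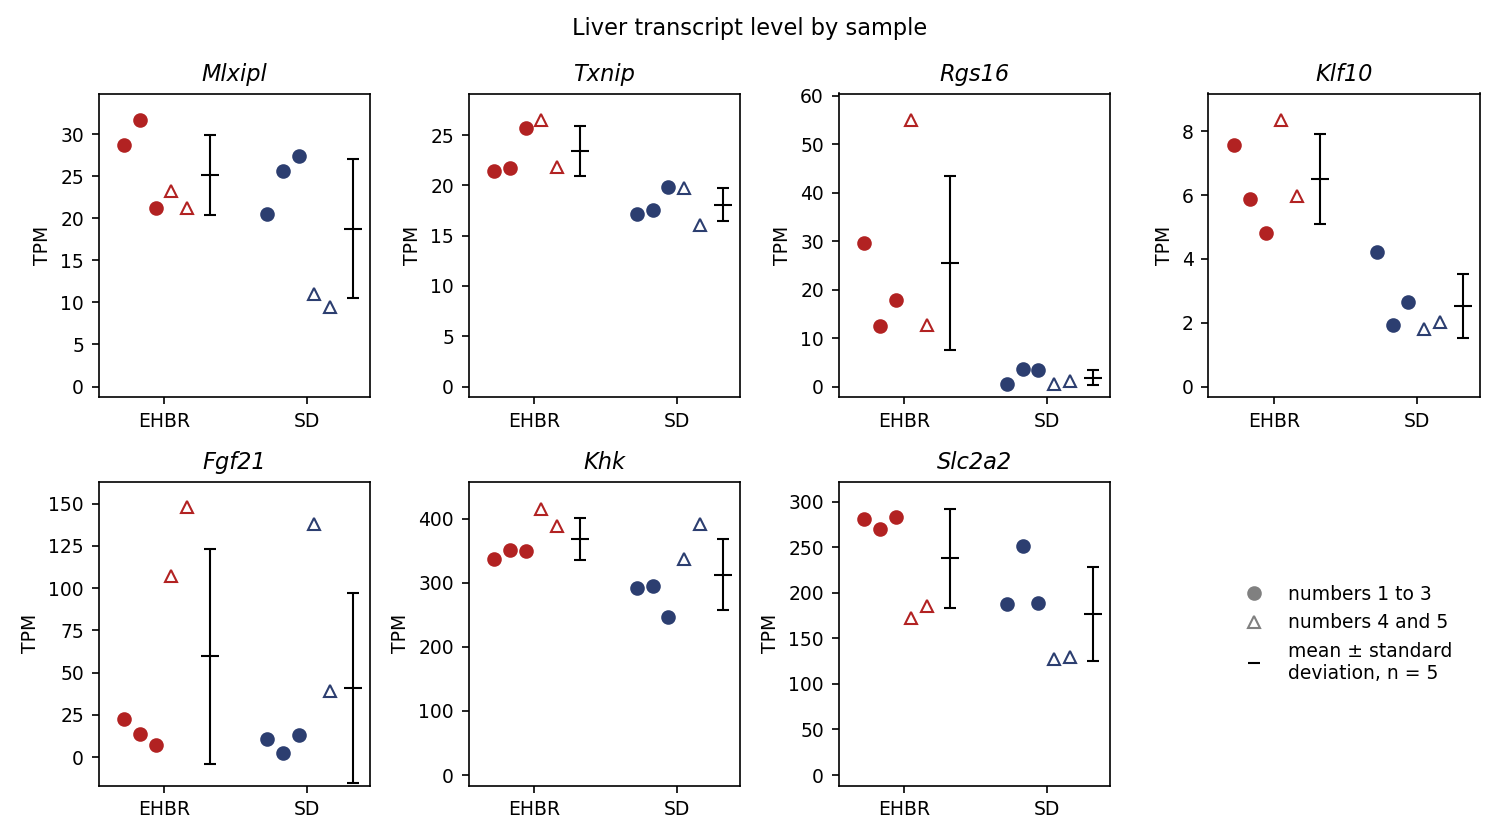
Level of each gene in TPM (vertical axis, linear) in EHBR and SD livers; filled circles are samples 1 to 3, open triangles samples 4 and 5, and the bar beside each strain is the mean with the standard deviation of 5 samples. Rgs16, Klf10 and Txnip do not overlap between strains, while Fgf21 is high in samples 4 and 5 of both strains.

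Fgf21, a liver hormone induced by PPARa in fasting and by ChREBP after sugar, was high in samples 4 and 5 of both strains. The gene lies on chromosome 1 from 101595579 to 101596822 in rn6. It measured 22.4, 13.8, 7.46, 107 and 148 TPM in EHBR samples 1 to 5, against 10.5, 2.72, 13.4, 138 and 39.4 TPM in SD samples 1 to 5. In both strains samples 4 and 5 lay above samples 1 to 3, and the strains overlapped within each part of the numbers. The mean was 127 TPM in EHBR samples 4 and 5 and 14.6 TPM in EHBR samples 1 to 3, and 88.7 against 8.86 TPM in the same SD samples. The strain difference was 0.75 on the log2 scale with an SE of 1.0, and 0.75 and 0.76 within the parts, each with an SE of 0.55. It ranged from 0.14 without SD sample 2 to 1.45 without SD sample 4. Fgf21 has a length of 627 bases in these tables and 18 to 1228 reads per library.

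Khk, which commits fructose to breakdown in liver, was the most abundant gene of the group, on chromosome 6 from 26810579 to 26820959 in rn6. It measured 338, 352, 350, 416 and 389 TPM in EHBR samples 1 to 5, against 292, 295, 246, 337 and 392 TPM in SD samples 1 to 5. The strains did not overlap among samples 1 to 3 and overlapped among samples 4 and 5. The difference was 0.25 (SE 0.12) over all samples, and 0.08 once every sample was centred on its median gene.

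Slc2a2, the gene of the low-affinity glucose and fructose transporter GLUT2, lies on chromosome 2 from 114413410 to 114445395 in rn6. It measured 281, 270, 283, 172 and 186 TPM in EHBR samples 1 to 5, against 188, 252, 189, 127 and 130 TPM in SD samples 1 to 5. Each part of the numbers had every EHBR value above every SD value, although the strains overlapped when the parts were pooled. The difference was 0.44 (SE 0.21) over all samples, 0.42 among samples 1 to 3 and 0.47 among samples 4 and 5. Samples 4 and 5 were lower than samples 1 to 3 in both strains, the reverse of the pattern of Fgf21.

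**Figure D2:**
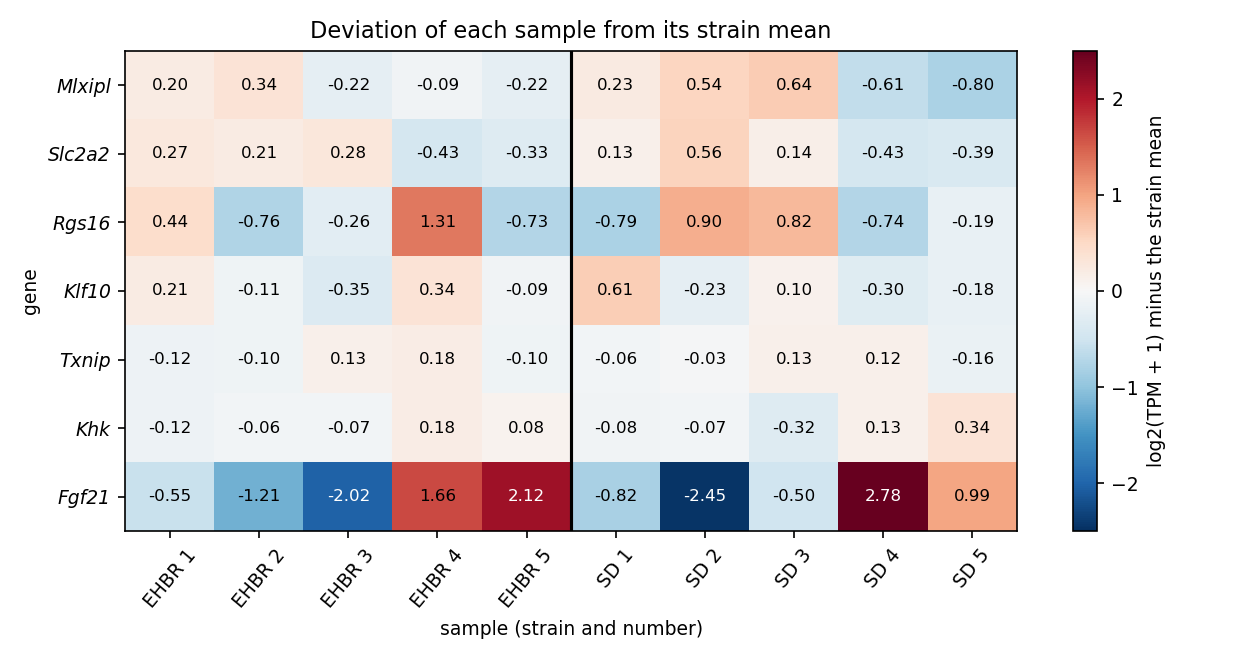
Deviation of each sample (columns) from its strain mean in log2(TPM + 1) for each gene (rows), EHBR samples left of the line and SD samples right of it. Fgf21 is above its strain mean in samples 4 and 5 of both strains, by 0.99 to 2.78, where Slc2a2 is below it by 0.33 to 0.43, and Rgs16 deviates by 1.31 in EHBR sample 4 and by -0.73 in EHBR sample 5.

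By mean TPM, the order of levels per transcript length was Khk, Slc2a2, Fgf21, Rgs16, Mlxipl, Txnip and Klf10 in EHBR. In SD it was Khk, Slc2a2, Fgf21, Mlxipl, Txnip, Klf10 and Rgs16. In EHBR the sample ranges of Khk and Slc2a2, of Slc2a2 and Fgf21, and of Txnip and Klf10 did not overlap, and other neighbours did. In SD, Txnip and Klf10 were the only neighbours in that order whose ranges did not overlap. Rgs16 stood between Fgf21 and Mlxipl in EHBR, at a mean of 25.5 TPM, and last in SD. Medians gave another order. In EHBR the median of Rgs16, 17.8 TPM, lay below those of Mlxipl at 23.3, Fgf21 at 22.4 and Txnip at 21.8 TPM. In SD the medians of Mlxipl at 20.5 and Txnip at 17.6 TPM lay above that of Fgf21 at 13.4 TPM. No other gene in the tables overlaps the position of any of the 7.

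**Figure D3:**
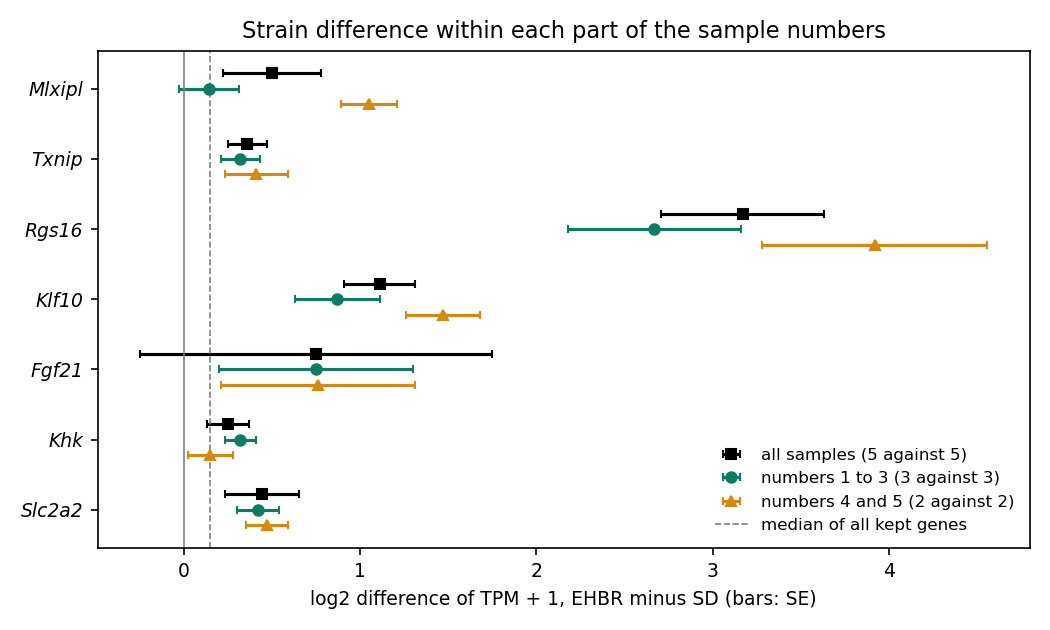
Log2 difference of TPM + 1, EHBR minus SD, with its SE (horizontal axis) for each gene, over all 10 samples, among numbers 1 to 3 and among numbers 4 and 5; the dashed line is the median of all kept genes at 0.15. Mlxipl lies at 0.14 in numbers 1 to 3 and at 1.05 in numbers 4 and 5, and Rgs16 and Klf10 exceed 0.8 in both parts. The dashed line is for all 10 samples, and the median of all kept genes was 0.07 in numbers 1 to 3 and 0.27 in numbers 4 and 5.

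Over all kept genes the median difference was 0.15, and centring each sample on its median moved it to -0.02. After that centring the differences were 0.33 for Mlxipl, 0.19 for Txnip, 3.0 for Rgs16, 0.94 for Klf10, 0.59 for Fgf21, 0.08 for Khk and 0.27 for Slc2a2. All 7 kept their sign under every scaling tried. In the fit over all genes, with limma and Benjamini-Hochberg adjustment, 3.82% of 11083 genes were called higher in EHBR at an adjusted p under 0.05 and 1.63% lower, or 5.45% in either direction. Of the 7 genes, 2 were called higher, Rgs16 and Klf10. Every EHBR sample exceeded every SD sample for 3 of the 7, Rgs16, Klf10 and Txnip, and for 6.45% of all kept genes, while 2.02% of kept genes had every EHBR sample below every SD sample. Since the genes were chosen with this contrast known, nothing is read from either count. By scaling, 423 genes were higher and 181 lower with TPM, 307 and 215 with FPKM, 219 and 262 with upper-quartile FPKM, 314 and 290 after quantile normalization and 193 and 266 after median centring.

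**Figure D4:**
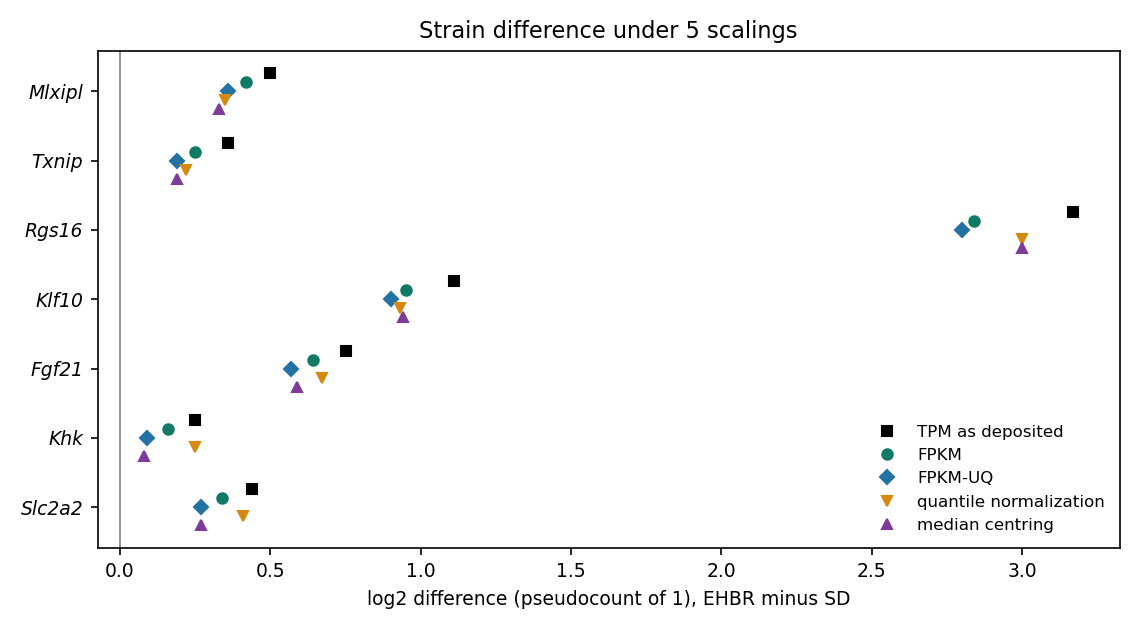
Log2 difference, EHBR minus SD (horizontal axis), of each gene under 5 scalings, TPM as deposited, FPKM, upper-quartile FPKM, quantile normalization and median centring. All points lie above 0, and TPM as deposited gives the highest value or a value equal to it, as for Khk at 0.25 with quantile normalization.

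Most kept genes of glycolysis and lipid synthesis that are known as ChREBP targets were higher in EHBR. This list and those below were drawn up with earlier results of these data known. Of 25 kept genes, 15 were called higher, none lower and 10 were not called, beside 3.82% and 1.63% of all kept genes, and the median log2 difference was 0.77 beside 0.15 for all. Pnpla3, a lipid droplet protein with lipase-like activity, measured 367 ± 100 TPM in EHBR and 27.0 ± 31.9 TPM in SD (standard deviation, n = 5 per strain), which gave 4.27 on the log2 scale (SE 0.53, limma, adjusted p = 0.000986). Pklr, whose promoter is printed above, measured 216 ± 29.1 TPM in EHBR and 92.2 ± 22.1 TPM in SD, a difference of 1.24 (SE 0.16, adjusted p = 0.00145, limma). Scd, the stearoyl-CoA desaturase, measured 2670 ± 260 TPM in EHBR and 557 ± 318 TPM in SD, a difference of 2.5 (SE 0.39, adjusted p = 0.00323, limma). Scd lies near Abcc2 on chromosome 1 in rn6, from 264160129 to 264172729, where Abcc2 runs from 263554453 to 263613252. A strain difference in the sequence around Abcc2 cannot be told apart from other causes for Scd, and its part was not tested. Acacb, the acetyl-CoA carboxylase tied to mitochondria, rose by 0.99 (adjusted p = 0.00223, limma). The 11 other called genes were Fasn, Acaca, Acly, Acss2, Dgat2, Tkt, Thrsp, Gpd1, Mttp, Gpam and Me1. Arrdc4, a Txnip relative that ChREBP and its paralogue MondoA induce, measured 2.14 to 3.12 TPM in EHBR and 1.08 to 2.89 TPM in SD and was not called (log2 0.33, adjusted p = 0.377, limma). Like Mlxipl it was lowest in SD samples 4 and 5, with 1.08 and 1.17 TPM, and it was chosen after its values were seen. Elovl6 did not pass the filter. The count was 9 with upper-quartile FPKM and with median centring, and 10 to 14 when each sample was left out. Srebf1, which drives many of the same lipid genes, was not called: it measured 223 ± 29.6 TPM in EHBR and 146 ± 39.9 TPM in SD (log2 0.65, adjusted p = 0.0751, limma).

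Partners and regulators of ChREBP were not called, with 0 of 15 kept genes at an adjusted p under 0.05 by limma, 3 at an unadjusted p under 0.05, and a median of 0.16. Mlx, the partner without which ChREBP does not bind DNA, measured 47.3 ± 3.51 TPM in EHBR and 42.5 ± 5.36 TPM in SD, and was chosen after its values were seen. Of these genes Srebf1 was the most abundant. Mlxip, which encodes MondoA, did not pass the filter.

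Fructose and polyol handling held the fructose transporter gene Slc2a5. Of 18 kept genes 4 were called higher and none lower, beside 3.82% and 1.63% of all kept genes, with a median of 0.31. By limma 12 had an unadjusted p under 0.05, beside 20.9% of all kept genes. Slc2a5, which encodes GLUT5, measured 30.6 ± 3.67 TPM in EHBR and 7.62 ± 3.53 TPM in SD, with no overlap, a difference of 1.94 (SE 0.22, adjusted p = 0.000485, limma). Within the numbers it was 2.08 for samples 1 to 3, and 1.74 for samples 4 and 5, where the call was lost (adjusted p = 0.061, limma). Without SD sample 5, the highest SD sample, it was 2.16. Gpi, glucose-6-phosphate isomerase, rose by 0.84 (adjusted p = 0.0077), Pgm1, a phosphoglucomutase, by 0.31 (adjusted p = 0.0454) and Glyctk, the glycerate kinase that completes fructose breakdown, by 0.41 (adjusted p = 0.0466, limma). Tkfc, the triokinase of fructose breakdown, was not called and measured 253 ± 73.8 TPM in EHBR and 139 ± 55.1 TPM in SD (log2 0.90, adjusted p = 0.0813, limma). It was chosen after its values were seen. Gpi, Pgm1 and Glyctk lost their call with upper-quartile FPKM and with median centring, which left Slc2a5 alone. With a term for the numbers 11 genes of the list were called, beside 1506 higher and 372 lower among all 11083 kept genes. Leaving out any EHBR sample or SD sample 1, 3 or 4 left 2 called genes, leaving out SD sample 2 left 4, and without SD sample 5 there were 6. Of 7 kept sugar transporters, a list that also holds sodium-linked carriers and the glucose 6-phosphate carrier, 1 was called, again Slc2a5. By limma 3 of them had an unadjusted p under 0.05.

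**Figure D5:**
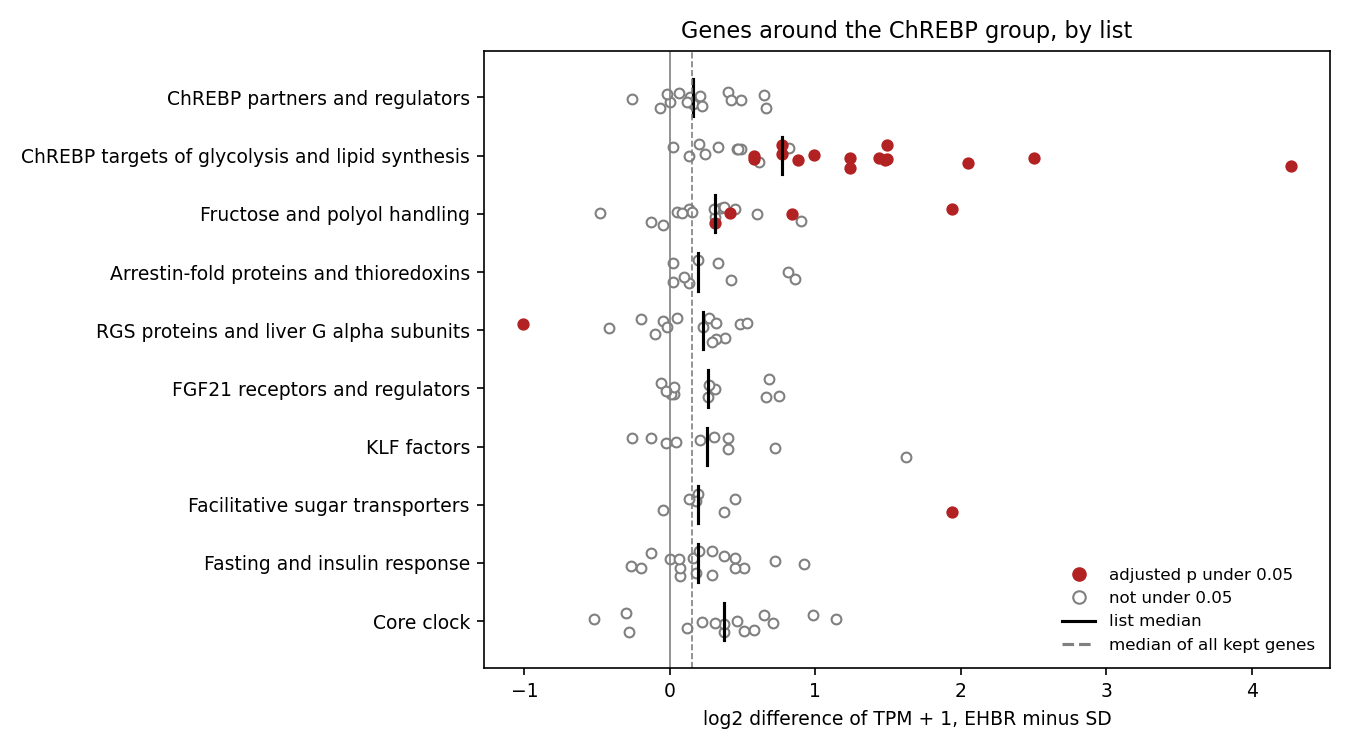
Log2 difference of TPM + 1, EHBR minus SD (horizontal axis), of every kept gene in 10 lists (rows); filled points have an adjusted p under 0.05, black ticks are list medians and the dashed line is the median of all kept genes. The list of ChREBP targets holds 15 of the called points, and its median of 0.77 lies to the right of the others.

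Few genes in the families and pathways of the other targets were called. Among RGS proteins and G alpha subunits, 1 of 15 kept genes was called, beside 5.45% of all kept genes in either direction. By limma 5 of the 15 had an unadjusted p under 0.05. The called gene, Rgs3, went the other way from Rgs16. It measured 1.75 ± 0.235 TPM in EHBR and 4.93 ± 2.84 TPM in SD (log2 -1.01, SE 0.24, adjusted p = 0.0292, limma). Leaving out any EHBR sample ended that call (limma, adjusted p = 0.0502 to 0.0781), as did a pseudocount of 5, no filter, and samples 1 to 3 alone. None of 9 kept arrestin-fold and thioredoxin genes was called by limma, 3 had an unadjusted p under 0.05, and their median was 0.19. Txn1, thioredoxin itself, measured 950 ± 219 TPM in EHBR and 926 ± 125 TPM in SD, and its sign changed with the scaling. None of 10 kept KLF genes was called by limma, 1 had an unadjusted p under 0.05, and their median was 0.26. The most abundant, Klf15, a factor of fasting metabolism, measured 59.3 ± 30.4 TPM in EHBR and 45.0 ± 25.9 TPM in SD. Klf13, chosen after its values were seen, measured 11.9 ± 5.20 TPM in EHBR and 3.97 ± 3.64 TPM in SD and missed the threshold (limma, adjusted p = 0.0921) at 1.62 on the log2 scale (SE 0.50), with 1.28 in samples 1 to 3 and 2.12 in samples 4 and 5. None of 11 kept receptors and regulators of FGF21 was called by limma, 1 had an unadjusted p under 0.05, and their median was 0.26. Creb3l3, a liver factor that induces Fgf21, measured 316 ± 36.6 TPM in EHBR and 308 ± 27.3 TPM in SD, and its sign also changed with the scaling.

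Rgs16, Klf10, Txnip and Fgf21 are known to follow feeding and the hour in rodent liver, so genes of both were read beside them. None of 18 kept genes of the fasting and insulin response was called by limma, 1 had an unadjusted p under 0.05, and their median was 0.19. None of 15 kept clock genes was called by limma, none had an unadjusted p under 0.05, and their median was 0.37. Both counts depend on the fit. A term for the numbers called 4 clock and 2 fasting genes, beside 1506 higher and 372 lower among all 11083 kept genes. Samples 1 to 3 alone called 2 clock genes and 1 fasting gene, beside 482 higher and 240 lower among all kept genes. Dbp measured 103 ± 90.5 TPM in EHBR and 75.1 ± 67.9 TPM in SD, with the low values in samples 4 and 5 of both strains given above, and its sign changed when single samples were left out. Arntl, the clock activator gene, was highest in the same samples, with 8.67 to 13.0 TPM in EHBR samples 4 and 5 and 0.493 to 1.97 TPM in EHBR samples 1 to 3, and 10.6 to 11.1 against 0.606 to 2.88 TPM in the SD samples. Arntl was chosen after its values were seen. The summed level of the clock list ranged from 102 to 413 TPM in EHBR and from 83.4 to 339 TPM in SD. A p over the threshold with such spread does not show that the strains were alike in feeding state or hour, and the part of either in the differences above was not tested.

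Genes with the most similar variation were sought for each of the 7 among kept genes averaging 5 TPM or more, by Pearson correlation of deviations from the strain means over the 10 samples. These values share the division between samples 1 to 3 and 4 and 5 and are descriptions. For Mlxipl they were Washc5, Fstl1 and Fam168a, all at 0.99. For Slc2a2 they were Dnaja2, Herpud1 and F12, all at 0.98, and for Khk Rpsa, Gamt and Sdhb at 0.99, 0.99 and 0.98. For Fgf21 they were Clpx, Cmbl and Angptl4 at 0.95. Angptl4, an inhibitor of lipoprotein lipase and like Fgf21 a target of PPARa, measured 38.5 ± 24.9 TPM in EHBR and 33.8 ± 19.5 TPM in SD. For Klf10 they were Nelfa, Slc17a9 and Abhd4 at 0.94, 0.92 and 0.92, and for Txnip Tmco6, Cd4 and Tinagl1 at 0.90, 0.87 and 0.84. For Rgs16 they were Gpcpd1, Anapc4 and the placeholder AABR07032821.1 at 0.92, 0.91 and 0.90. After median centring Anapc4 stood at 0.49 and Cd4 at 0.65. None of the 7 genes was among the 3 nearest to another.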

How the data were processed

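Per the labels' protocols, TRIzol RNA of each liver was poly(A)-selected and sequenced with strand-marking libraries. In the submitters' processing notes the build is rn6, and the tools are featureCounts 1.6.3 and HISAT2 2.1.0, with FastQC 0.11.7 and Trimmomatic 0.38. The strand setting of featureCounts is not given there. The authors deposited TPM, FPKM and upper-quartile FPKM, a scaled signal, for each gene and sample. Whole read numbers, within 0.002 reads, were worked out from the upper-quartile values, and they give depth and counting precision only.

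Strains were compared with limma 3.58.1 in R 4.3.3 (trend option, two-sided, Benjamini-Hochberg) on log2(TPM + 1), which understates the change of low genes. Upper-quartile values were multiplied by 1 constant before the pseudocount. The labels do not say whether the numbers pair animals, so p-values cover only the spread among samples, which may be technical. The test was checked on simulated data. Tables, promoter searches and figures used Python 3.11.15, pandas 2.3.3, numpy 2.4.6 and matplotlib 3.10.9.

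The 7 genes, the lists and the division of the numbers were chosen with earlier results of these data known. Named beside the 7 were Abcc2, up to 4 called genes with the smallest adjusted p per list or else its most abundant gene, and the 3 genes most like each of the 7. Other genes are said to be chosen after their values were seen. Some genes that this rule names are not reported here. Alternatives were pseudocounts of 0.1 and 5, both FPKM tables, no filter, quantile normalization, median centring, a replicate block, a term for the numbers, each part of the numbers, and leaving out each sample.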

Additional observations from a re-analysis of the deposited data

Results flagged for a closer look

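Of 88 sets of 5 samples, each a gene in 1 strain, 5 had a highest sample far from the other 4, where chance gives about 1 in 20. Fgf21 had 138 TPM in SD sample 4, with the other SD samples at 2.72 to 39.4 TPM. Pnpla3 had 82.9 TPM in SD sample 5, with the others at 7.53 to 24.1 TPM, and Slc2a5 had 13.8 TPM in the same sample, with the others at 5.15 to 7.04 TPM. Rgs3 had 2.16 TPM in EHBR sample 1, with the other EHBR samples at 1.59 to 1.67 TPM, and 9.99 TPM in SD sample 3, with the other SD samples at 3.26 to 4.03 TPM.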

How the results depend on the processing

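All 7 genes kept their sign in every alternative, and the cause of the changes below was not tested. Beside 423 higher and 181 lower genes, upper-quartile FPKM gave 219 higher, median centring 193 higher, quantile normalization 290 lower, the term for the numbers 1506 and 372, and samples 4 and 5 alone 112 lower. Deviations correlated at 0.07 to 0.29 for the 5 same-number pairs (4 over 0.1) and at 0.05 to 0.40 for all pairs on the same side of the numbers, and 4 of 10 samples were closest to their own number, so the numbers were not taken as pairs. With the number as a replicate block 639 genes were higher and 222 lower. The block called 1 arrestin-fold or thioredoxin gene, 2 RGS, 1 FGF21, 1 KLF, 2 sugar transporter, 2 fasting and 2 clock genes. The term for the numbers called 3 partners of ChREBP, 11 fructose, 1 arrestin-fold, 4 RGS, 2 FGF21, 2 KLF, 3 sugar transporter, 2 fasting and 4 clock genes. Samples 1 to 3 alone called 1 FGF21, 1 KLF, 2 sugar transporter, 1 fasting and 2 clock genes. Samples 4 and 5 alone called 1 partner, 0 fructose, 2 arrestin-fold, 1 FGF21, 2 KLF, 0 sugar transporter, 1 fasting and 1 clock gene. Among all 11083 kept genes, samples 1 to 3 alone gave 482 higher and 240 lower. Samples 4 and 5 alone gave 460 higher and 112 lower. ChREBP targets came to 9 and fructose genes to 1 with upper-quartile FPKM and with median centring, and RGS genes to 0 with a pseudocount of 5 and with no filter. Samples 4 and 5 alone gave 1.05 for Mlxipl and 1.47 for Klf10. Txnip was 0.19 with upper-quartile FPKM and median centring and 0.22 after quantile normalization, and a pseudocount of 5 gave 2.01 for Rgs16 and 0.61 for Klf10.

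Leaving out each sample gave 243 to 439 higher and 135 to 179 lower genes, 0 to 1 partners, 10 to 14 targets, 2 to 6 fructose, 0 to 1 arrestin-fold, 0 to 2 RGS, 0 to 1 KLF and 1 to 2 sugar transporter genes. The ranges were 0.30 to 0.66 for Mlxipl, 0.31 to 0.39 for Txnip, 2.84 to 3.39 for Rgs16, 1.03 to 1.26 for Klf10, 0.14 to 1.45 for Fgf21, 0.17 to 0.34 for Khk and 0.33 to 0.58 for Slc2a2. Signs changed for 3 genes that were not called. Creb3l3 was -0.06 with FPKM, -0.14 after median centring, -0.01 after quantile normalization, -0.13 with upper-quartile FPKM and -0.20 in samples 4 and 5, and -0.03 to 0 where leaving out a sample turned it. Txn1 was -0.07 with FPKM and in samples 1 to 3, -0.14 with upper-quartile FPKM and -0.15 after median centring, and -0.11 to -0.01 where leaving out a sample turned it. Dbp ranged from -0.32 to 1.21 when each sample was left out. The 20 called list genes kept their sign in every alternative, and 8 to 20 kept their call. Depth limits Rgs16 in SD, with 13 to 97 reads, and Fgf21, with 18 reads in its lowest library.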

Other observations

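Of the listed genes, 4 were chosen after their values were seen because their strain difference, like that of Mlxipl, was larger in samples 4 and 5 than in samples 1 to 3. Arrdc3, an arrestin-fold relative of Txnip, had log2 differences of 1.92 in samples 4 and 5 and 0.15 in samples 1 to 3. Angptl8, a feeding-induced hepatokine, had 1.62 in samples 4 and 5 and 0.29 in samples 1 to 3. Gpam, which starts triglyceride synthesis, had 2.35 in samples 4 and 5 and 0.90 in samples 1 to 3. Scd, which lies near Abcc2 as given above, had 3.62 in samples 4 and 5 and 1.75 in samples 1 to 3. Over all kept genes the median was 0.27 in samples 4 and 5 and 0.07 in samples 1 to 3. Of the 25 kept ChREBP targets, 20 had the larger difference in samples 4 and 5 and 5 the smaller, among them Pnpla3 with 3.83 in samples 4 and 5 and 4.56 in samples 1 to 3, and Me1 with 1.1 in samples 4 and 5 and 1.75 in samples 1 to 3. The matching count over all kept genes is not given here, and their median also was larger in samples 4 and 5. Nothing particular to the targets is therefore read from the 20. These are values given without a test of the difference between the parts.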
